A study of Mus musculus with 9 samples.

Results

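The interferon-linked TRIM genes described here are 10 mouse genes, Trim12a, Trim12c, Trim14, Trim21, Trim25, Trim26, Trim30a, Trim30d, Trim34a and Trim56, chosen by name for their place in interferon biology. Earlier results of these data were known when the genes were chosen. The genes are 10 of the 54532 gene identifiers counted. They were followed in RNA-seq of kidneys with 3 libraries per group. All mice were of the C57BL/6J background. The first group was wild-type mice, whose treatment is not given in the labels. The second was Trex1-/- mice, bred from Trex1+/- parents, 1 month old when injections began and given the vehicle, PBS with 1% Tween 80, daily for 2 weeks. The third was Trex1-/- mice given SN-011, an antagonist of STING, at 10 mg/kg on the same schedule. Wild-type mice of the study were bought from a supplier at 4 to 8 weeks of age, and were not said to be littermates, so the source of the mice and the genotype cannot be told apart. Nothing in the labels says whether a library came from 1 mouse or from pooled mice, so p-values measure the spread between these libraries.

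Most TRIM proteins carry a RING finger, which can transfer ubiquitin to a target, followed by B-box and coiled-coil segments and a variable tail that selects the target. TREX1 degrades DNA in the cytosol. Without it, DNA engages the sensor cGAS, cGAS signals through STING, and type I interferon is made, which acts through transcription factors such as IRF9 on genes that hold an interferon-stimulated response element (ISRE) near their start. Several TRIM genes are among those targets, and several TRIM proteins act back on the sensors, by ubiquitinating RIG-I, cGAS, STING or their partners.

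Of the 10 genes, 6 lie on chromosome 7 within a stretch of 1.95 Mb (GRCm38, 102557921 to 104507849) that holds 12 TRIM family genes. These are Trim21 (ENSMUSG00000030966, 7:102557921-102565486, minus strand), Trim34a (ENSMUSG00000056144, 7:104244457-104262234, plus strand), Trim12a (ENSMUSG00000066258, 7:104299894-104315466, minus strand), Trim12c (ENSMUSG00000057143, 7:104338754-104353362, minus strand), Trim30a (ENSMUSG00000030921, 7:104409025-104465193, minus strand) and Trim30d (ENSMUSG00000057596, 7:104470014-104507849, minus strand). The others lie apart. Trim14 (ENSMUSG00000039853) is at 4:46493781-46536141 on the minus strand, Trim56 (ENSMUSG00000043279) at 5:137105644-137116209 on the minus strand, Trim25 (ENSMUSG00000000275) at 11:88999376-89020293 on the plus strand, and Trim26 (ENSMUSG00000024457) at 17:36837134-36859398 on the plus strand. All 10 are protein-coding.

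The Trim30 pair and the Trim12 pair of that stretch share sequence before their starts, which is shown because these pairs are compared throughout. Promoters of 300 bases, 250 before the transcript start and 50 after it, were taken from RefSeq on GRCm38.p6 for 9 of the 10 genes, all but Trim14. Trim30a has an outer and an inner annotated start, which made 10 promoters and 45 pairs. In 4 pairs the promoters held an identical stretch of at least 20 bases on the gene's strand, and in the other pairs the longest was 10 bases. Windows of 30 bases from within the shared stretches follow, read 5′ to 3′ on the minus strand, with no capitals because the paired windows do not differ at any base.
Trim30a outer start, chr7:104465244-104465273: cagttaatgatgaggtaccaccccattggt
Trim30d, chr7:104507905-104507934: cagttaatgatgaggtaccaccccattggt
Trim12a, chr7:104315605-104315634: tgagggtggtgaggtgtttctgcctggctc
Trim12c, chr7:104353499-104353528: tgagggtggtgaggtgtttctgcctggctc
Trim30a outer start, chr7:104465205-104465234: tttagtttctttttctcagttcctgccctc
Trim30a inner start, chr7:104446099-104446128: tttagtttctttttctcagttcctgccctc

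The outer Trim30a promoter and the Trim30d promoter shared 118 bases without a difference and matched at 93.6% of 295 aligned bases. Among 32849 promoters of other genes, 1 shared a stretch as long with the outer Trim30a promoter, that of Trim30d. Trim12a and Trim12c shared 71 bases and matched at 72.3% of 260 aligned bases, and 2 of 32850 promoters of other genes, Trim12c among them, shared a stretch that long with Trim12a. Both starts of Trim30a shared 31 bases, as did the inner start and Trim30d, a pair whose windows are not printed. Shared letters are a description of the sequence, and neither binding nor promoter activity was measured.

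Facts of the libraries come before the values, because they touch every comparison. The libraries held 16118813 to 21928965 counts, with TMM scaling factors of 0.926 to 1.06. The targeted gene Trex1 had 0 counts in all 9 libraries, the wild type included. Every exonic base of Trex1 is also exonic in Atrip on the same strand, so these counts neither bound its expression nor check the genotype. Transcripts of Y-linked genes summed to 153 to 188 CPM, the count scaled to library size, in the 3 PBS libraries, SN-011 replicate 2 and wild-type replicate 3, and to at most 0.377 CPM in the other 4 libraries, which held 434 to 503 CPM of Xist. The labels give no sex. Results are therefore given also from a fit with a term for Y-linked transcripts and from libraries of one kind alone. All 12 kidney markers were detected, their sum being 19066 to 37569 CPM over the 9 libraries, of which Kap made up 648 to 18781.

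Reads of near-identical neighbours limit some of these counts. Of 150-base stretches of the transcripts, 3.24% of those of Trim30a also occur in Trim30d, 2.54% of those of Trim12c and 0.382% of those of Trim12a occur in Trim5, and 24.3% of those of Trim34a occur in Trim34b or in Gm47248, which overlaps it on the opposite strand. Trim14 shares 26.9% with Nans and Gm16731, which overlap it on the opposite strand. The strand setting of the counting step is not given in the sources used here, so the Trim14 and Trim34a counts are the least certain of the 10. Gm47248 was listed at 0 counts in all 9 libraries.

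The comparison of Trex1-/- mice given PBS with the wild type asks what loss of TREX1 did to these genes in the kidney. All 10 genes had their 3 PBS libraries above their 3 wild-type libraries, where 13.1% of the 16646 genes tested had groups apart in that direction. With edgeR's quasi-likelihood test and Benjamini-Hochberg adjustment over all genes tested, 7 of 10 rose at an adjusted p under 0.05, namely Trim12a, Trim12c, Trim21, Trim25, Trim30a, Trim30d and Trim34a, and 0 fell, against 1.44% of all tested genes called higher and 0.439% called lower. Their median log2 fold change was 0.95, beside 0.00 over all genes tested. Summed over the 10 genes, the libraries held 272 to 280 CPM in the wild type, 445 to 523 with PBS and 337 to 405 with SN-011. In whole kidneys, more cells of a type and more RNA per cell cannot be told apart.

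**Figure D1:**
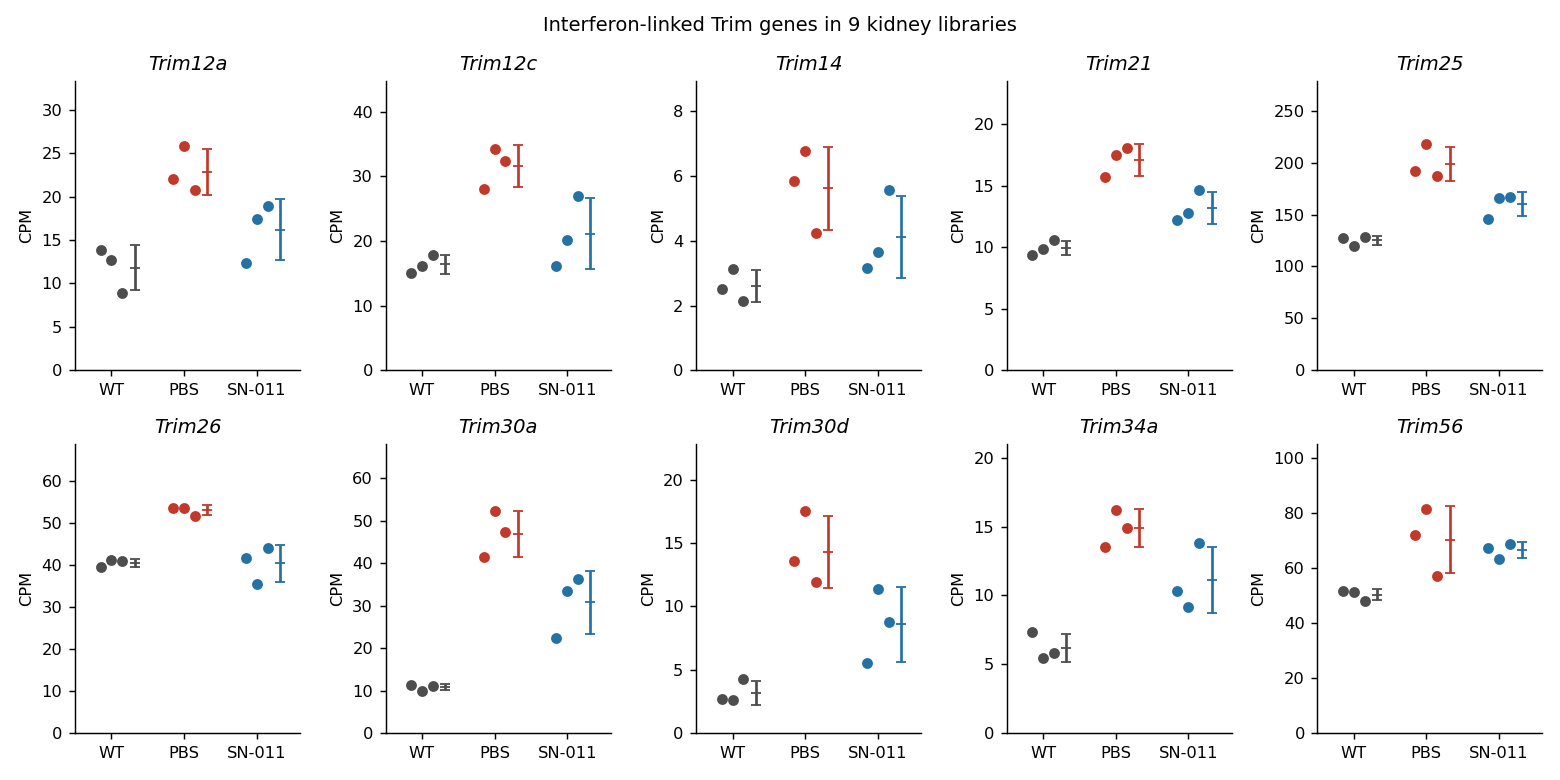
CPM of each of the 10 genes in every library (points; replicates 1, 2 and 3 from left to right) with the group mean and SD (bars), for wild type (WT), Trex1-/- with PBS and Trex1-/- with SN-011. In all 10 panels the 3 PBS points lie above the 3 WT points, and in 9 panels the SN-011 mean lies between the other means, Trim26 being the exception.

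The Trim30 pair moved most. Trim30a, known to restrain Toll-like receptor signalling to NF-kB and to promote the degradation of STING, stood at 11.3, 9.94 and 11 CPM in the 3 wild-type libraries, at 41.5, 52.3 and 47.4 with PBS, and at 22.4, 33.4 and 36.4 with SN-011. The 3 groups did not overlap, with SN-011 in the middle. Trim30a rose 4.38-fold in PBS over wild type (log2 fold change 2.13, SE 0.175, 95% interval 1.74 to 2.52, edgeR adjusted p 2.12e-04).

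Trim30d, its neighbour and paralog, stood lower at 2.64, 2.57 and 4.22 CPM in the wild type, 13.6, 17.5 and 11.9 with PBS, and 5.50, 11.4 and 8.78 with SN-011. Here too the groups were apart, though the highest SN-011 library, replicate 2, came close to the lowest PBS library. Trim30d rose 4.58-fold (log2 fold change 2.20, SE 0.294, 95% interval 1.54 to 2.85, edgeR adjusted p 0.00311) from 56 to 73 counts per wild-type library to 191 to 299 with PBS. With the term for Y-linked transcripts, the log2 fold changes were 2.04 for Trim30a and 1.77 for Trim30d, and both stayed past the threshold (edgeR adjusted p 0.00105 and 0.0073).

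Trim34a, a TRIM gene of the same stretch that is known for its induction by interferon, stood at 7.36, 5.42 and 5.79 CPM in the wild type, 13.5, 16.2 and 14.9 with PBS, and 10.3, 9.16 and 13.8 with SN-011. The PBS libraries were all above the wild type, and SN-011 replicate 3 lay within the PBS range. The rise was 2.40-fold (log2 fold change 1.27, SE 0.182, edgeR adjusted p 0.0051). Trim34b, which shares stretches with it, was too low to be tested and reached at most 1.12 CPM.

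Trim12a and Trim12c are among the mouse relatives of TRIM5, a factor that in primates intercepts retroviral capsids. Trim12c stood at 15.1, 16.1 and 17.9 CPM in the wild type, 28.1, 34.3 and 32.4 with PBS, and 16.1, 20.1 and 27.0 with SN-011. Trim12a stood at 13.8, 12.7 and 8.91 CPM in the wild type, 22.0, 25.8 and 20.7 with PBS, and 12.3, 17.4 and 18.9 with SN-011. In both genes the SN-011 libraries spread from within the wild-type range to just below the lowest PBS library, and replicate 1 was the lowest of them. Each rose 1.93-fold with PBS over wild type, with a log2 fold change of 0.95 for either gene (SE 0.171 for Trim12c, 0.195 for Trim12a). These were the least secure of the 7 calls. The edgeR adjusted p of 0.0183 for Trim12c became 0.0764 with the Y-linked term and 0.0776 to 0.103 without PBS replicate 2 or 3 or wild-type replicate 1 or 2, and the 0.0380 for Trim12a became 0.0701 with that term, 0.0646 with the replicate number as a block and 0.0633 to 0.175 without any 1 of the 6 libraries compared.

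Trim21 encodes the cytosolic antibody receptor that is also the Ro52 autoantigen of lupus and Sjögren's syndrome. It stood at 9.38, 9.85 and 10.6 CPM in the wild type, 15.7, 17.5 and 18.1 with PBS, and 12.2, 12.8 and 14.7 with SN-011. The 3 groups were apart, in the order wild type, SN-011 and PBS. Trim21 rose 1.72-fold with PBS (log2 fold change 0.78, SE 0.118, edgeR adjusted p 0.00659, or 0.0395 with the Y-linked term).

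Trim25, a ubiquitin ligase reported to act on RIG-I and a cofactor of the antiviral protein ZAP, was the most abundant of the 10. It stood at 127, 120 and 128 CPM in the wild type, 192, 218 and 187 with PBS, and 146, 166 and 167 with SN-011. As for Trim21, the 3 groups were apart with SN-011 in the middle. The rise was 1.59-fold (log2 fold change 0.67, SE 0.0939, edgeR adjusted p 0.00414, or 0.0205 with the Y-linked term), and it was the 1 call among the 4 genes off the chromosome 7 stretch.

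The 3 remaining genes had PBS libraries above wild-type libraries and missed the threshold. Trim56, known to ubiquitinate cGAS and to act with STING, stood at 51.5, 51.2 and 47.8 CPM in the wild type, 71.9, 81.4 and 57.2 with PBS, and 67.4, 63.1 and 68.7 with SN-011. Its SN-011 libraries lay inside the PBS range. The log2 fold change of PBS over wild type was 0.48 (SE 0.117, edgeR adjusted p 0.0726).

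Trim14, which lacks a RING finger and acts as an adaptor of MAVS at the mitochondrion, was the lowest of the 10 in counts, with 37 to 116 per library. It stood at 2.50, 3.12 and 2.14 CPM in the wild type, 5.85, 6.77 and 4.23 with PBS, and 3.17, 3.65 and 5.58 with SN-011. The log2 fold change was 1.11 with a 95% interval of 0.51 to 1.72 (edgeR adjusted p 0.0757), so its fitted change was larger than that of several called genes and its error larger too.

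Trim26, encoded beside the major histocompatibility complex and known to regulate IRF3 activation, stood at 39.4, 41.2 and 40.8 CPM in the wild type, 53.6, 53.5 and 51.5 with PBS, and 41.6, 35.4 and 44.0 with SN-011. Its PBS libraries were tight and apart from both other groups, which overlapped each other. The log2 fold change was the smallest of the 10, 0.39 (SE 0.0906, edgeR adjusted p 0.0665).

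DESeq2's Wald test, edgeR's exact test, and leaving out SN-011 replicate 2 alone, a library outside this comparison, each brought all 3 of these genes past the threshold. Trim14 and Trim26 passed it also with the 6 libraries of the comparison, Trim14 and Trim56 with no filter beyond 1 read, and Trim56 without PBS replicate 3. The Y-linked term left 5 of 10 called, without Trim12a and Trim12c, at a median log2 fold change of 1.0. Among the libraries with Y-linked transcripts alone, 3 with PBS and 1 wild type, all 10 genes were higher with PBS by 0.37 to 2.09 on the log2 scale, with a median difference of 1.09. Within these libraries there is no replicate of the wild type and no test.

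Markers of white blood cells moved in the same direction. The 12 myeloid markers summed to 188 to 223 CPM in the wild type, 306 to 346 with PBS and 179 to 276 with SN-011. All 12 had log2 fold changes above 0 in PBS over wild type, at a median of 0.88, and 3 of 12 passed the test, Coro1a, Fcgr1 and C1qa, against 1.44% of all tested genes called higher. With the Y-linked term their median was 0.58 and Fcgr1 alone passed (edgeR adjusted p 0.0461). The 12 lymphoid markers summed to 13.0 to 17.8 CPM in the wild type, 37.2 to 48.7 with PBS and 21.2 to 52.0 with SN-011, and 3 of the 10 tested rose with PBS, Cd3g, Cd4 and Jchain, against the same 1.44%, at a median log2 fold change of 1.42 over the 10. With the Y-linked term that median was 1.02 and Jchain alone passed (edgeR adjusted p 0.0465). Of the 12 kidney markers, 9 had log2 fold changes below 0, at a median of -0.21, 5 had PBS libraries below all wild-type libraries, against 12.3% of all tested genes, and Slc5a2, the glucose transporter of the proximal tubule, fell (-0.71, edgeR adjusted p 0.0163, or 0.0701 with the Y-linked term). None of these markers was at 0 in every library, and their part in the changes of the TRIM genes was not tested.

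The comparison of SN-011 with PBS in Trex1-/- mice asks whether the STING antagonist lowered these genes. All 10 had log2 fold changes below 0, at a median of -0.44 beside -0.01 over all genes tested. In 7 of 10 the 3 SN-011 libraries lay below the 3 PBS libraries, against 8.41% of all tested genes, and the exceptions were Trim14, Trim34a and Trim56. By edgeR's quasi-likelihood test with adjustment over all genes, 0 of 10 fell, and 0% of the 16646 genes were called in either direction. At an unadjusted p under 0.05 there were 8 of 10, against 11.4% of all tested genes. DESeq2's Wald test called 1 of 10, Trim26 (adjusted p 0.0405), and edgeR's exact test and limma-voom called 0 of 10.

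The sizes of these differences ran from small to moderate. The log2 fold change of SN-011 over PBS was -0.74 for Trim30d (SE 0.275, 95% interval -1.35 to -0.13, edgeR adjusted p 0.354). For Trim30a it was -0.61 (SE 0.166, 95% interval -0.98 to -0.25, edgeR adjusted p 0.250), and for Trim12c -0.59 (SE 0.170, 95% interval -0.96 to -0.21, edgeR adjusted p 0.275). The 6 genes of the chromosome 7 stretch had a median of -0.54, beside -0.35 for the 4 others.

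The order of these sizes depended on the fit. With the Y-linked term Trim30d was at -0.32 (edgeR adjusted p 0.719), Trim30a at -0.53 and Trim12c at -0.55, while Trim14 at -0.66, Trim34a at -0.62 and Trim12a at -0.61 were the farthest below 0. All 10 were below 0 in that fit too, at a median of -0.50, and 0 of 10 were called.

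Trim26 had a log2 fold change of -0.39 with a small error (SE 0.0908, 95% interval -0.59 to -0.19), and the smallest p of the 10 (edgeR unadjusted p 0.00147, adjusted 0.227). Trim12a at -0.50, Trim34a at -0.43, Trim21 at -0.37 and Trim25 at -0.32 had 95% intervals that ended below 0. Trim14 at -0.44 (95% interval -1.03 to 0.15) and Trim56 at -0.08 (95% interval -0.34 to 0.18) had intervals that held 0. Without PBS replicate 2 the value of Trim56 turned to 0.047, and without 1 library that of Trim14 ran from -0.713 to -0.279. SN-011 replicate 1 was the lowest of its group for 7 of the 10 genes and replicate 3 the highest for 9 of 10. PBS replicate 2 was the highest of its group for 8 of 10 and PBS replicate 3 the lowest for 6 of 10. Both groups thus varied in a shared way.

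Among libraries with Y-linked transcripts, SN-011 replicate 2 was below the mean of the 3 PBS libraries for all 10 genes, by 0.15 to 0.70 on the log2 scale. In the fit of all 9 libraries, the 12 myeloid markers had log2 fold changes of SN-011 over PBS below 0, at a median of -0.47, and 0 of 12 passed the test. With the Y-linked term the median was -0.26, with Ptprc and Itgam at 0.00. Of the 10 lymphoid markers tested, 9 were below 0, at a median of -0.45 (-0.34 with the Y-linked term), and 0 were called, while Jchain was at 0.25 (0.73 with that term). Their part in the differences of the TRIM genes was not tested.

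**Figure D2:**
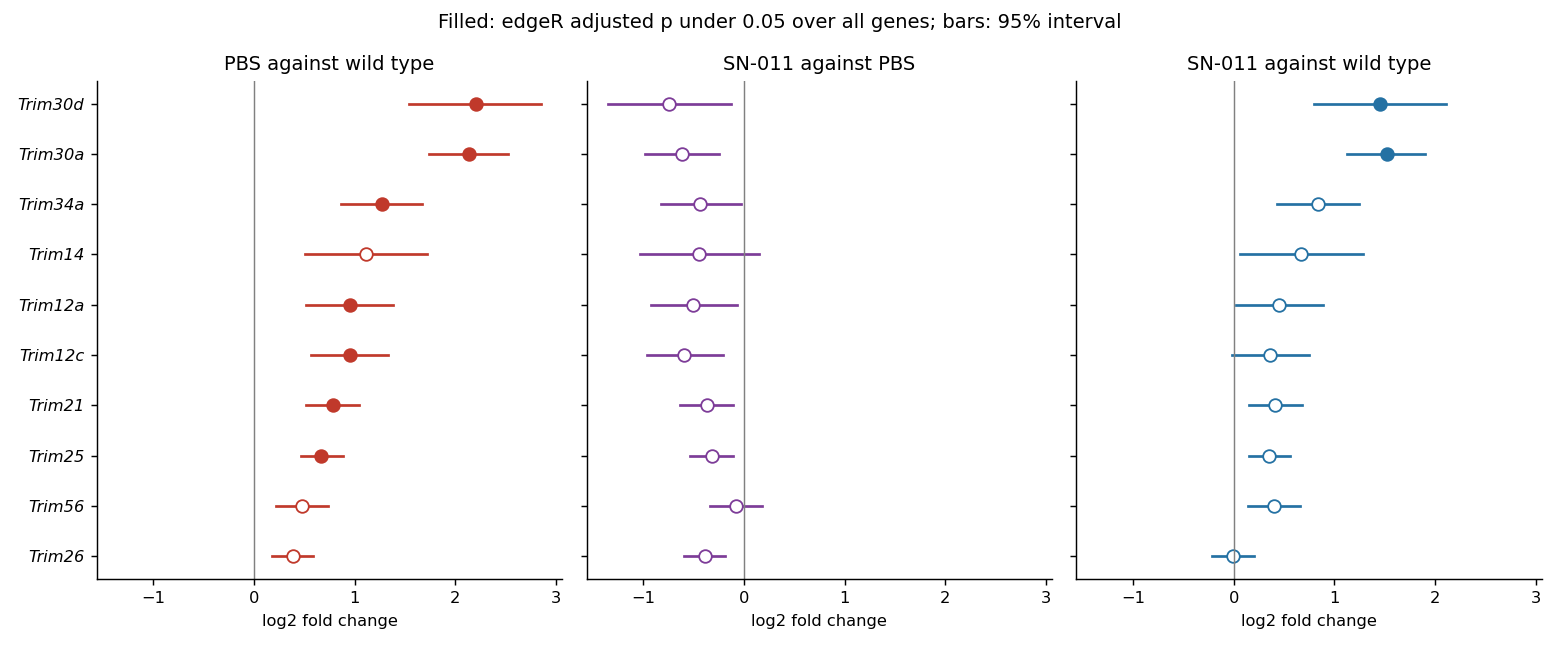
Fitted log2 fold change of each of the 10 genes (points) with its 95% interval (bars) in the 3 comparisons, genes ordered by the first; filled points have an edgeR adjusted p under 0.05 over all genes. In the left panel 7 points are filled and all lie above 0, in the middle panel all 10 lie below 0 and none is filled, and in the right panel Trim30a and Trim30d are filled.

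The comparison of SN-011-treated Trex1-/- mice with the wild type asks how far from wild type these genes stayed under the antagonist. It shares its libraries with the comparisons above. The Trim30 pair stayed high. Of the 10 genes, 2 were called higher and 0 lower, against 0.823% of all tested genes called higher and 0.457% called lower, and 7 of 10 had SN-011 libraries above all wild-type libraries, against 11.8% of genes. Trim30a was 2.86-fold above wild type (log2 fold change 1.52, SE 0.173, edgeR adjusted p 0.00424). Trim30d was 2.74-fold above (log2 fold change 1.45, SE 0.294, edgeR adjusted p 0.0473), a call that was lost without PBS replicate 1, 2 or 3, SN-011 replicate 2 or 3, or wild-type replicate 1 or 2 (adjusted p 0.0594 to 0.176), and with limma-voom (0.0746), the replicate block (0.0547) or the 6 libraries of the comparison (0.143).

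Trim34a came next at a log2 fold change of 0.84 (SE 0.183, edgeR adjusted p 0.0604), and it passed with the Y-linked term (0.0265), with no filter beyond 1 read, with DESeq2's Wald test and edgeR's exact test, and without SN-011 replicate 2. The values for Trim14, Trim12a, Trim21, Trim56, Trim12c and Trim25 were 0.67, 0.45, 0.41, 0.40, 0.36 and 0.35. By edgeR's quasi-likelihood test none of them was called, and DESeq2's Wald test called Trim25 (adjusted p 0.0182). Without 1 library Trim12c ran from 0.147 to 0.524, Trim14 from 0.394 to 0.827 and Trim12a from 0.284 to 0.617, while the other values moved less. Trim26 was at -0.01 with a 95% interval of -0.21 to 0.20, and its sign changed with the library left out. In the 4 libraries with Xist, 2 per group, all 10 genes were higher with SN-011, by 0.09 to 1.47 on the log2 scale. Among the libraries with Y-linked transcripts, 1 per group, 9 of 10 were higher with SN-011, at a median difference of 0.53, and Trim26 was lower, at -0.21.

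In the same comparison 10 of the 12 myeloid markers had log2 fold changes above 0, at a median of 0.39, and 0 were called. Of the 10 lymphoid markers tested 8 were above 0, at a median of 0.79, and Jchain, the joining chain of antibodies, was called (2.24, edgeR adjusted p 0.0185). Of the 12 kidney markers 10 were below 0, at a median of -0.12, and 0 were called. With the Y-linked term Slc5a2 was called lower (-0.50, edgeR adjusted p 0.0314). The part of these markers in the differences of the TRIM genes was not tested here either.

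Levels between genes were compared per kb of exon. In the wild type, Trim25 led at 21.7 ± 0.679 CPM per kb (SD, n = 3), followed at a distance by Trim26 at 5.90, Trim56 at 5.41 and Trim12c at 4.38. Trim21 at 2.68, Trim30a at 2.62, Trim34a at 2.39 and Trim12a at 2.04 formed a run in which neighbours overlapped. Trim30d at 0.837 and Trim14 at 0.596 were lowest and overlapped each other.

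With PBS the order changed in the middle. Trim25 still led at 34.6 ± 2.85 CPM per kb (SD, n = 3), and Trim30a moved from the 6th to the 2nd place at 11.4 ± 1.32, apart from both neighbours. Trim12c at 8.45, Trim26 at 7.70, Trim56 at 7.56 and Trim34a at 5.74 followed with overlapping neighbours. Trim21 at 4.60, Trim12a at 3.95 and Trim30d at 3.81 overlapped next, and Trim14 was last at 1.29.

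With SN-011 Trim30a kept the 2nd place at 7.48 CPM per kb, now overlapping Trim56 at 7.16. Trim25 led at 27.7, and Trim30d at 2.28 and Trim14 at 0.953 were again the lowest.

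**Figure D3:**
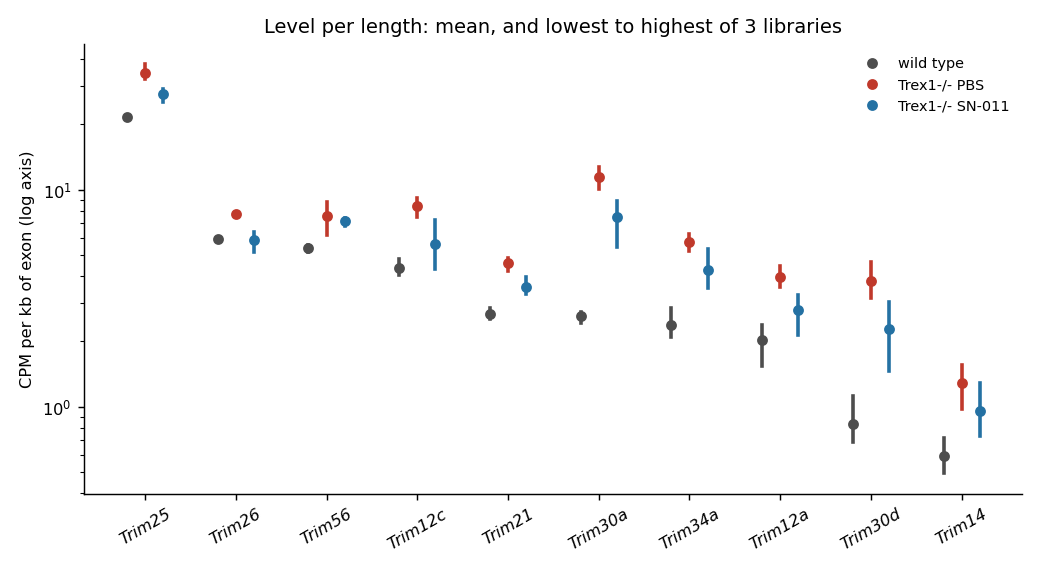
Mean level per kb of exon (points, log axis) and the lowest to highest library (lines) for the 10 genes in the 3 groups of 3 libraries, genes ordered by the wild-type mean. Trim25 leads in every group, and Trim30a goes from 2.62 CPM per kb in the wild type to 11.4 with PBS.

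The rest of the family shows how far these values were shared. The annotation holds 63 other TRIM family genes, of which 38 could be tested, 25 were too low and 4 of those had no read. In PBS against wild type their median log2 fold change was 0.01, 7 of the 38 had PBS libraries above all wild-type libraries, against 13.1% of all tested genes, 3 had them below, against 12.3%, and 1 rose, Trim6, against 1.44%. Trim6 belongs to the same chromosome 7 stretch and stood at 1.13, 1.31 and 1.10 CPM in the wild type and 4.45, 3.80 and 2.11 with PBS (log2 fold change 1.54, SE 0.316, edgeR adjusted p 0.0380). Its call was lost in 8 of the 18 settings that tested it, namely the term for Y-linked transcripts, limma-voom, the replicate block, and leaving out PBS replicate 1 or 2 or any 1 of the wild-type replicates, at adjusted p up to 0.17.

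The 4 tested neighbours on the chromosome 7 stretch had a median log2 fold change of 1.13, beside 1.11 for the 6 interferon-linked genes there. Among these neighbours, Trim5, a relative of Trim12a and Trim12c, had a mean of 2.08 CPM in the wild type and 4.04 with PBS (log2 fold change 0.96, edgeR adjusted p 0.0840). Trim30b had a log2 fold change of 1.30 at under 1 CPM in both groups (edgeR adjusted p 0.296), Trim68 was at -0.03, and Trim30c and Trim34b were too low to be tested. Off that stretch, Pml, itself a TRIM protein and interferon target, was at 0.39 (edgeR adjusted p 0.0779) and Trim46 at -1.55 (edgeR adjusted p 0.118), both named with their values known. By edgeR's quasi-likelihood test 0 of the 38 were called in SN-011 against PBS and 0 in SN-011 against wild type, with 4 and 9 at an unadjusted p under 0.05, against 11.4% and 18.0% of all tested genes. With the Y-linked term Trim47 at 0.38 (edgeR adjusted p 0.026) and Trim46 at -1.45 (0.0274) were called in SN-011 against wild type.

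**Figure D4:**
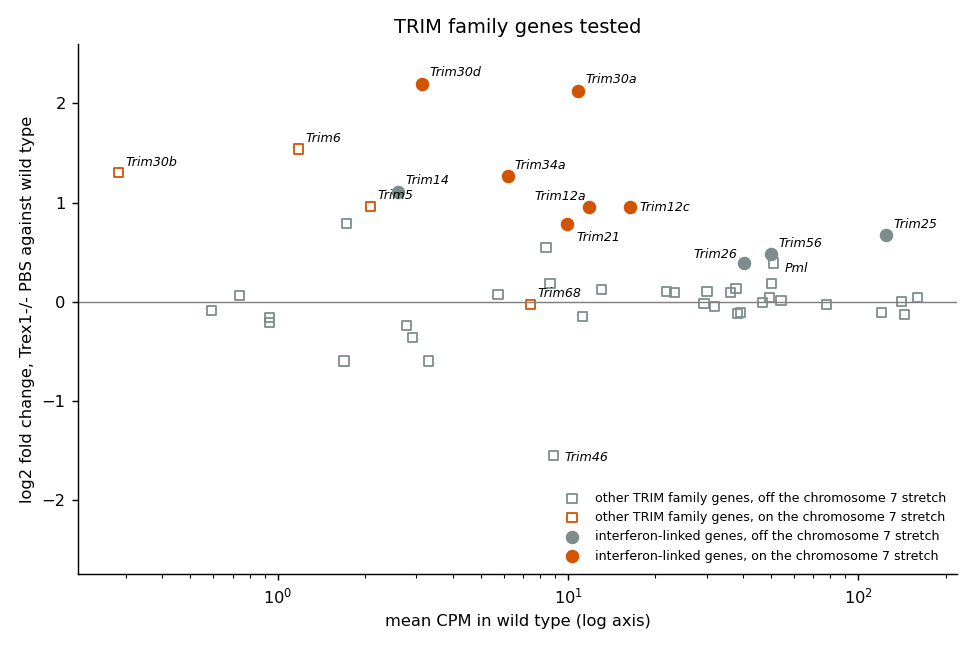
Log2 fold change of PBS over wild type against the mean wild-type CPM (log axis) for the 10 interferon-linked genes (circles) and the 38 other tested TRIM family genes (squares), with genes of the chromosome 7 stretch in orange. The circles lie between 0.39 and 2.20, while the squares have a median of 0.01.

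The proteins with which these TRIMs work were followed as a list of 28 genes, sensors, adaptors, kinases, ubiquitin enzymes and targets, of which 27 were tested. In PBS against wild type 6 rose and 0 fell, against 1.44% and 0.439% of all tested genes, at a median log2 fold change of 0.15. They were Ddx58, which encodes RIG-I, at 1.24 (edgeR adjusted p 3.34e-04), Ifih1, encoding the RNA sensor MDA5, at 1.63 (3.34e-04), Dhx58, encoding their relative LGP2, at 2.41 (8.71e-04), Zc3hav1, encoding ZAP, at 1.25 (3.66e-04), Irf7, the amplifier of interferon transcription, at 3.08 (2.37e-04), and Isg15, a ubiquitin-like modifier, at 3.24 (2.12e-04). Ddx58 RNA thus rose along with that of Trim25. Ddx58 stood at 38.2, 36.9 and 40.1 CPM in the wild type, 86.6, 106 and 79.1 with PBS, and 61.9, 69.3 and 70.0 with SN-011.

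The adaptor genes Mavs and Tmem173 and the sensor gene Cgas were not called. Mavs was at -0.02 (edgeR adjusted p 0.959), Tmem173, the gene of STING, at 0.24 (0.676), and Cgas at 1.14 (0.214), all named with their values known. The same 6 genes that rose with PBS were the ones called in SN-011 against wild type, with log2 fold changes of 0.81 for Ddx58, 1.0 for Ifih1, 1.28 for Dhx58, 0.85 for Zc3hav1, 1.84 for Irf7 and 1.97 for Isg15. Each lost that call without wild-type replicate 2 and all but Zc3hav1 also without wild-type replicate 1, at adjusted p of up to 0.174. Dhx58 lost it in 11 of 19 settings, also without wild-type replicate 3, SN-011 replicate 3 or any 1 of the PBS libraries, and with upper-quartile scaling, limma-voom, the replicate block or the 6 libraries of the comparison alone. Irf7 lost it also with those 6 libraries alone. By edgeR's quasi-likelihood test 0 of the 27 were called in SN-011 against PBS, with 11 at an unadjusted p under 0.05, against 11.4% of all tested genes. Of these 11, Irf3 at 0.24 and Ube2v1 at 1.10 were higher with SN-011, and the rest were lower. Irf3 and Ube2v1 are named with their values known.

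Interferon receptor, kinase and transcription factor genes were followed beside them. In PBS against wild type Stat2 rose at a log2 fold change of 1.44 (edgeR adjusted p 3.34e-04), Irf9 at 0.86 (7.84e-04) and Irf1 at 0.87 (0.00945). Irf2 at 0.14 (0.662), the receptor genes Ifnar1 at -0.10 and Ifnar2 at 0.03, and the kinase genes Jak1 at 0.12 and Tyk2 at 0.06 were not called and are named with their values known. Irf1 missed the threshold once Y-linked transcripts had a term, and without PBS replicate 1 or 2 or wild-type replicate 1 or 2, at adjusted p up to 0.0626. In SN-011 against wild type Stat2 was called at 0.92 and Irf9 at 0.69, and each missed the threshold without wild-type replicate 1 or 2, at adjusted p up to 0.0637. Irf1 was at 0.56 there (edgeR adjusted p 0.0847), and was called with the Y-linked term (0.0406). Stat2, Irf9 and Irf1 were not called in SN-011 against PBS.

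Over the 9 libraries the 10 genes varied together, with a median Pearson's r of log2 CPM of 0.870 over all pairs. These are descriptions over libraries that share the 3 groups, and carry no test. Trim25 tracked the others most closely, at a mean r of 0.902 with the other 9, and Trim26 least, at 0.689, with Trim56 next at 0.764. Of 14842 genes ranked by their mean r with the 10, the highest were Dhx58 at 0.922, Gm20559 at 0.920, Ifit2 at 0.918, Dtx3l at 0.916 and Parp12 at 0.915. Ifit2 encodes an interferon-induced antiviral protein, and Dtx3l a ubiquitin ligase. The r of Dhx58 with single genes of the 10 ran from 0.778 to 0.990.

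Of the 10 genes, 7 belong to the study's list M7core, and the 3 outside it are Trim12a, Trim14 and Trim30d. The list holds genes of a module from fibroblasts stimulated through cGAS that rose there and have IRF2 bound at their promoters. The study followed that module because it rose most in macrophages and hearts of Trex1-/- mice. M7core was thus not drawn up apart from Trex1 loss. In PBS against wild type 5 of the 7 were called, all but Trim26 and Trim56, as were 2 of the 3 outside it, Trim12a and Trim30d, against 1.44% of all tested genes called higher.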

How the data were processed

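Strand-specific paired-end reads of polyA-selected kidney RNA were trimmed by the authors with Trimmomatic, aligned to mm10 with HISAT2 at default settings, and counted per gene with featureCounts. The deposited values are the authors' raw counts of uniquely mapped pairs per Ensembl gene, 1 table per library. Versions, annotation and strand setting of the counting are not given in the sources used here. Libraries held 16118813 to 21928965 counts.

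Of 54532 identifiers, 54495 were matched to GENCODE vM21 (GRCm38). Counts were fitted with edgeR 4.0.16 in R 4.3.3: genes were kept by filterByExpr (at least 10 counts, 15 in total), which left 16646, libraries were scaled by TMM, and the 3 group means were estimated together from all 9 libraries by quasi-likelihood. A gene was called at a Benjamini-Hochberg adjusted p under 0.05 over all genes tested. Intervals are at 95% and cover the spread between libraries. CPM uses TMM-scaled library sizes, and log2 CPM a prior count of 2.

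The members and lists were chosen with earlier results of these data known. Genes named are the 10 members, Trex1, other TRIM, partner or interferon signalling genes called in any comparison, the 5 genes most like the members, and the TRIM genes of the chromosome 7 stretch. Any others are said to be named with their values known, except the called cell-type markers. The 19 alternatives were other scalings, filters and tests (DESeq2 1.42.0, limma 3.58.1), fewer libraries, a replicate block, and a term for Y-linked transcripts (over 10 CPM).
Promoter sequences are from RefSeq (GRCm38.p6). The result for 1 gene of the interferon signalling list is not reported here.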

Additional observations from a re-analysis of the deposited data

How the results depend on the processing

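Under 19 alternative settings the fitted direction held for all 10 genes in PBS against wild type, and 5 to 10 of them were called. Trim21, Trim25, Trim30a, Trim30d and Trim34a passed under every setting, as did Trim30a in SN-011 against wild type. Without 1 library 5 to 10 were called in PBS against wild type, 0 for SN-011 against PBS, and 1 or 2 for SN-011 against wild type, where limma-voom, the 6 libraries of the comparison and the replicate block also left 1, and DESeq2's Wald test gave 4, while no filter beyond 1 read, the exact test and the Y-linked term gave 3. DESeq2's Wald test gave 1 in SN-011 against PBS. Without 1 library the value of Trim26 in SN-011 against wild type ran from -0.0722 to 0.0749 and that of Trim56 in SN-011 against PBS from -0.203 to 0.047. The value of Trim26 in SN-011 against wild type turned to 0.0749 without SN-011 replicate 2 and to 0.00516 without wild-type replicate 2, and that of Trim56 in SN-011 against PBS to 0.047 without PBS replicate 2. The causes were not tested.

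Counts over all genes moved more. In PBS against wild type 313 genes were called, 707 with no filter beyond 1 read, 726 with DESeq2's Wald test, 683 with the exact test, 751 with the 6 libraries alone, 198 with the Y-linked term, and 153 to 774 without 1 library. The lowest values came without PBS replicate 1 (157) or 2 (153) or wild-type replicate 1 (160) or 2 (162), and the highest without SN-011 replicate 2. In SN-011 against PBS 0 were called, 127 with no filter, 183 with the Wald test, 127 with the exact test, and 0 to 519 without 1 library, 519 without SN-011 replicate 2, 22 without replicate 3, and 1 without PBS replicate 2. In SN-011 against wild type 213 were called, 607 with no filter, 816 with the Wald test, 601 with the exact test, 43 with the 6 libraries, 656 with the Y-linked term, and 38 to 376 without 1 library: 102, 106 and 124 without PBS replicates 1, 2 and 3, 376 without SN-011 replicate 2, and 38 and 48 without wild-type replicates 1 and 2. Other scalings moved the median over all genes by under 0.1 on the log2 scale.

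Nothing in the labels says that replicate numbers pair the libraries. Between PBS and SN-011, deviations of same-numbered libraries from their group means had correlations of 0.0981 to 0.242. Those of differently numbered libraries there ran from -0.216 to 0.0914. With the wild type, same-numbered libraries had -0.294 to 0.238 and differently numbered ones -0.368 to 0.38. Whether the mice were paired was not tested. With the replicate block, 312 genes and 6 of the 10, without Trim12a, were called in PBS against wild type. SN-011 against PBS had 0 and 0, and SN-011 against wild type 231 and 1. Precision was limited most for Trim14, with 37 to 116 counts per library, and Trim30d, with 56 to 299.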
